A study of Homo sapiens with 6 samples.

Results

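The epidermal growth factor (EGF) receptors, their ligands and the proteases that release those ligands were followed as 10 genes, chosen by symbol: the receptor genes EGFR, ERBB2, ERBB3 and MET, the ligand genes AREG, EREG, HBEGF and TGFA, and the sheddase genes ADAM17 and ADAM10. All 10 were found, each in a single row of a table of 29538 genes, and all 10 passed the filter on low counts that left 16412 genes for testing. Poly(A) RNA-seq compared MDA-MB-231 cells, an established human breast cancer line of mesenchymal character, 48 h after transfection of 160 pmol per well of either SI-BYSL-Homo-838, an siRNA against BYSL (siBYSL, 3 cultures), or a negative-control siRNA (siNC, 3 cultures). BYSL encodes bystin, a factor of small ribosomal subunit assembly. All cultures received 4 µL of Lipofectamine RNAiMAX, with a change of medium at 6 h. Only 1 line and 1 siRNA against BYSL were used, so what follows BYSL loss and what follows that siRNA cannot be told apart. The labels call the 3 cultures of a group independent biological replicates.

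EGF receptors are tyrosine kinases that dimerise when a ligand binds and then signal through the RAS-ERK, PI3K and STAT pathways. The ligands are made as precursors anchored in the membrane, and sheddases of the ADAM family cut off the active growth factor. ADAM17 is the main sheddase of amphiregulin, epiregulin, HB-EGF and TGF-alpha, whereas ADAM10 is best known for cutting EGF and betacellulin. MET, the receptor of hepatocyte growth factor, lies outside the EGF receptor family but feeds the same pathways and is itself shed by ADAM proteases. Cells of the basal type of breast cancer, to which MDA-MB-231 is usually assigned, are known for high EGFR and low ERBB2 and ERBB3.

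The libraries held 27754883 to 32088817 counted reads in siBYSL and 28606048 to 30476744 in siNC. BYSL stood at 15.9, 15.7 and 17.4 CPM (reads of the gene per 1e+06 of the TMM-scaled library) in siBYSL 1 to 3, against 104.1, 94.5 and 101.3 CPM in siNC 1 to 3, so that each library followed its label. All 5 mesenchymal markers examined were at 10 CPM or more, with summed levels of 3859 to 3946 CPM in siBYSL and 4689 to 4736 CPM in siNC. Of 7 luminal or epithelial markers, ESR1 stayed at or under 0.091 CPM and PGR at or under 0.38 CPM in all libraries. Within that list CDH1 (7.92 to 10.04 CPM in siBYSL, 4.37 to 4.57 CPM in siNC) and EPCAM (20.7 to 20.9 CPM in siBYSL, 13.78 to 15.02 CPM in siNC) rose and KRT19 fell; their part in the results was not tested. The summed luminal or epithelial level, mostly keratins KRT18 and KRT19, was 878.1 to 1108 CPM in siBYSL and 952.7 to 1036 CPM in siNC. Of 4 leukocyte markers, PTPRC was at or under 0.31 CPM and CD14 stood at 10.5 to 14.9 CPM, while CD3E was not analysed here. The endothelial marker CDH5 and the hepatocyte marker ALB were at or under 0.071 and 0.10 CPM, and the endothelial marker PECAM1 ranged over 4.97 to 6.60 CPM. Library siBYSL 3 stood apart from its group: over genes, the chi-square per degree of freedom reached 14.3 for the pair with siBYSL 1 and 8.9 for the pair with siBYSL 2; it was 2.58 between siBYSL 1 and 2 and 2.01 to 3.45 between siNC libraries. Results that rest on siBYSL 3 are therefore given with and without it.

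The 10 genes did not move as a block. AREG, TGFA, ERBB2 and ADAM10 rose in siBYSL, HBEGF, ADAM17, MET and EGFR fell, and EREG and ERBB3 did not pass the test. Thus 4 of 10 rose, where 18.5% of all tested genes rose, and 4 of 10 fell, where 18.4% of all tested genes fell (adjusted p under 0.05 in the quasi-likelihood test of edgeR). In either direction 36.9% of tested genes were called, and 44% of the 9932 tested genes with a mean of 10 CPM or more, which 9 of the 10 genes reached. The CPM values of the groups did not overlap for 8 of the 10 genes, nor for 49.6% of all tested genes. The median log2 fold change of the 10 genes was -0.06, against 0.01 over all tested genes, and the median absolute log2 fold change was 0.30, against 0.21. In bulk RNA, fewer cells of a type and less RNA per cell cannot be told apart.

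**Figure D1:**
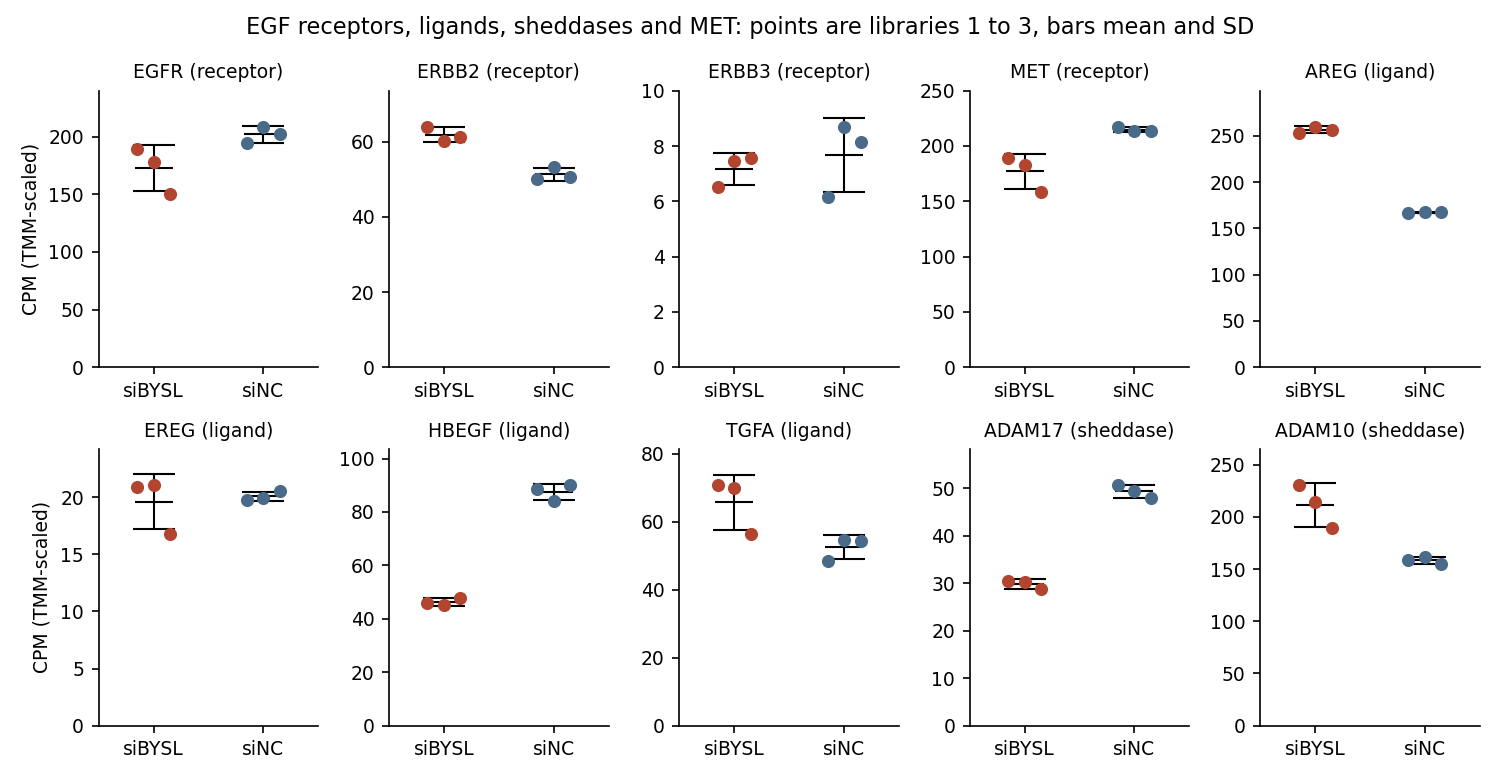
Expression of the 10 genes in each library, in CPM on axes that start at 0, with siBYSL (red, left) and siNC (blue, right). Points are libraries 1 to 3 from left to right and bars give mean and SD. The groups do not overlap for 8 of the 10 genes, all but EREG and ERBB3. Library siBYSL 3 is the lowest siBYSL library for EGFR, MET, EREG, TGFA, ADAM17 and ADAM10.

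Among the ligands, AREG and HBEGF moved in opposite directions. AREG encodes amphiregulin, a ligand of EGFR, with its gene on the plus strand of chromosome 4 (GRCh38, 74445134 to 74455009). It stood at 252.5, 259.9 and 256.7 CPM in siBYSL 1 to 3, against 166.1, 167.6 and 167.3 CPM in siNC 1 to 3. Every siBYSL library lay far above every siNC library, with little spread inside either group. The log2 fold change of AREG was 0.62 (SE 0.046, edgeR adjusted p = 5.8e-06), or 154% of the siNC level, and 7.81% of tested genes had a higher log2 fold change.

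HBEGF encodes heparin-binding EGF-like growth factor, which activates EGFR and ERBB4, and lies on chromosome 5 from 140332843 to 140346631 on the minus strand. It stood at 45.9, 45.1 and 47.9 CPM in siBYSL 1 to 3, against 88.6, 84.2 and 90.1 CPM in siNC 1 to 3. The groups were again fully apart. HBEGF had a log2 fold change of -0.92 (SE 0.055, edgeR adjusted p = 1.4e-06), or 52.8% of the siNC level, and 1.32% of tested genes had a lower log2 fold change.

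TGFA encodes transforming growth factor alpha, a ligand of EGFR, on chromosome 2 from 70447280 to 70554193. It stood at 70.8, 70.1 and 56.4 CPM in siBYSL 1 to 3, against 48.4, 54.6 and 54.4 CPM in siNC 1 to 3. The groups did not overlap, but siBYSL 3 lay just above the highest siNC library. TGFA had a log2 fold change of 0.33 (SE 0.088, edgeR adjusted p = 0.0145), and it was 0.42 (adjusted p = 9.2e-07) without siBYSL 3. The rise missed the threshold without siBYSL 2 (adjusted p = 0.0707) and without siNC 1 (0.0734), and the adjusted p was between 9.2e-07 and 0.0417 under the other alternatives.

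EREG encodes epiregulin, which binds EGFR and ERBB4, and lies upstream of AREG on chromosome 4, from 74365143 to 74388751. It stood at 20.9, 21.1 and 16.8 CPM in siBYSL 1 to 3, against 19.8, 19.9 and 20.5 CPM in siNC 1 to 3. The siBYSL libraries lay on both sides of the siNC libraries. For EREG the log2 fold change was -0.03 (SE 0.090, edgeR adjusted p = 0.802), and 1.96 SE on either side spanned -0.21 to 0.14. Its sign was positive without siBYSL 3 (0.07), with library totals (0.05) and with upper-quartile factors (0.01), and no alternative gave a call. The rise of AREG, by contrast, kept between 0.61 and 0.70 under all 14 alternatives. Between the end of EREG and the start of AREG lie 56382 bases with 1 other annotated gene.

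The starts of the 2 nearby ligand genes are shown because AREG was called and EREG was not. The windows run from 250 bases before to 50 bases after the RefSeq start on GRCh38.p14, both on the plus strand, 5′ to 3′; capitals mark the cAMP response element TGACGTCA, searched on both strands.
AREG, chr4:74444886-74445185: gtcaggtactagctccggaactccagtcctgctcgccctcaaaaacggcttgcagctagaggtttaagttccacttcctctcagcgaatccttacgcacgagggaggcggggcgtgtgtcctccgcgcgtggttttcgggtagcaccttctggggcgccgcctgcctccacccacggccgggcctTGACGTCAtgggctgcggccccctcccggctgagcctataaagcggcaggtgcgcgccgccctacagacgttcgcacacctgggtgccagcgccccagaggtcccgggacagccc
EREG, chr4:74364895-74365194: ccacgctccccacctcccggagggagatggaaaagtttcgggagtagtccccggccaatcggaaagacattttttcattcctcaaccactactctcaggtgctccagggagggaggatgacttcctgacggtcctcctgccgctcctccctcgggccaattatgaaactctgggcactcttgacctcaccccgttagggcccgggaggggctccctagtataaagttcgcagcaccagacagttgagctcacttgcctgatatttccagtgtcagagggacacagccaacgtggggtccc
The AREG window held the element, beginning 65 bases before the start, and the EREG window did not. Of 35116 RefSeq promoter windows of the same length, 1.85% held TGACGTCA. Both windows held the letters TATAAA, beginning 29 bases before the AREG start and 32 bases before the EREG start, as did 11.5% of all windows. Neither held the AP-1 letters TGANTCA, found in 7.71% of all windows. Windows were given for 9 of the 10 genes, all but ERBB3, and no other window among them held TGACGTCA. An EGFR window held the AP-1 letters and TATAAA, and the ERBB2 window held the AP-1 letters. A match describes letters, not a used site. The shares of windows were not split by call, and the part of these letters in the changes was not tested.

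Per kilobase of exon, the scale on which genes can be set side by side, the summed level of the 4 ligands was higher in siBYSL, and more of it was AREG. The sum averaged 187.6 ± 2.5 CPM per kilobase in siBYSL and 144.5 ± 1.3 CPM per kilobase in siNC (SD, n = 3 each). AREG made up 82.2%, 82.8% and 83.8% of it in siBYSL 1 to 3, against 70.3%, 70.6% and 69.6% in siNC 1 to 3. HBEGF made up 8.15%, 7.84% and 8.54% in siBYSL 1 to 3, against 20.5%, 19.4% and 20.5% in siNC 1 to 3. These 2 shares were fully apart between the groups, in opposite directions. TGFA held 6.11% to 7.66% in siBYSL and 6.80% to 7.64% in siNC, and EREG 1.58% to 1.97% in siBYSL and 2.41% to 2.46% in siNC. The EREG share was thus also fully apart, though EREG itself was not called. A share also moves when the sum moves. The ratio of AREG to HBEGF per kilobase was 10.2 ± 0.38 in siBYSL and 3.49 ± 0.13 in siNC. Shares and ratios are descriptions of the same values and carry no test; on raw counts, with no division by length, AREG made up 66.1% in siBYSL and 51.1% in siNC.

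**Figure D2:**
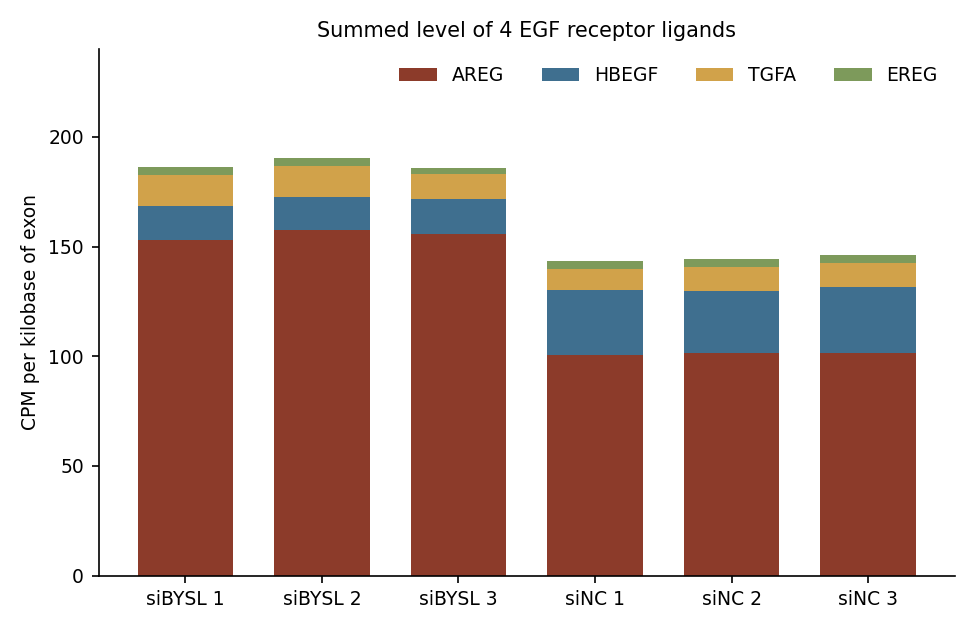
Summed level of the 4 EGF receptor ligands in each library, in CPM per kilobase of exon, split by gene (AREG at the bottom, then HBEGF, TGFA and EREG). The siBYSL bars sum to 186.0 to 190.5 and the siNC bars to 143.4 to 145.9, with a taller AREG part and a shorter HBEGF part in siBYSL.

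Among the sheddases, ADAM17 fell and ADAM10 rose. ADAM17 encodes the protease also called TACE, and lies on chromosome 2 from 9488486 to 9556732 on the minus strand. It stood at 30.6, 30.2 and 28.7 CPM in siBYSL 1 to 3, against 50.7, 49.5 and 47.9 CPM in siNC 1 to 3. The groups were far apart, and siBYSL 3 lay with the other siBYSL libraries. The log2 fold change of ADAM17 was -0.73 (SE 0.058, edgeR adjusted p = 8.5e-06), or 60.5% of the siNC level, and 2.68% of tested genes had a lower log2 fold change.

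ADAM10 encodes a related protease that also cuts Notch and cadherins, on chromosome 15 from 58588807 to 58749978 on the minus strand. It stood at 230.4, 214.3 and 189.2 CPM in siBYSL 1 to 3, against 158.8, 161.2 and 155.0 CPM in siNC 1 to 3. All siBYSL libraries lay above all siNC libraries, with siBYSL 3 the lowest of the 3. For ADAM10 the log2 fold change was 0.42 (SE 0.068, edgeR adjusted p = 8.3e-04), or 133% of the siNC level, and 0.49 without siBYSL 3. The ratio of ADAM10 to ADAM17 per kilobase was 5.01, 4.71 and 4.38 in siBYSL 1 to 3, against 2.08, 2.16 and 2.15 in siNC 1 to 3.

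Exons of ADAM17 share 1323 bases with those of IAH1 on the opposite strand. The kit keeps strand, per the labels, but whether the counting used it is not given in the sources used here. IAH1 stood at 50.4 ± 2.7 CPM in siBYSL and 46.3 ± 2.7 CPM in siNC (SD, n = 3 each; log2 fold change 0.12, edgeR adjusted p = 0.17). ERBB2 shares 571 exon bases with MIEN1 and 194 with PGAP3 on the opposite strand, and neither of those was called (edgeR adjusted p = 0.0928 and 0.498). ERBB3 shares 31 exon bases with the same-strand gene RP11-603J24.9, which fell by 0.62 on the log2 scale. EGFR-AS1, opposite to EGFR, had 2 counts over all 6 libraries.

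An siRNA strand can also act on other transcripts through its seed, bases 2 to 8, when the 3′ UTR holds the complementary heptamer. The strands are shown 5′ to 3′ with the seed in capitals, as the labels give them, followed by the matches found in the longest annotated 3′ UTR of each of the 10 genes (GENCODE 29, GRCh38, sense strand of the transcript), with the heptamer in capitals.
siBYSL guide (antisense): uAUUCAGCaacgucaucuctt
siBYSL passenger (sense): gAGAUGACguugcugaauatt
ADAM17, guide match, chr2:9489780-9489808: tgtaatgaaccGCTGAATatgaggcattt
EREG, guide match, chr4:74385686-74385714: ataggggctttGCTGAATtctaacattaa
EGFR, passenger match, chr7:55206805-55206833: ctctgccttgaGTCATCTattcaagcact
EREG, passenger match, chr4:74386377-74386405: atcacacgactGTCATCTaaagtcctggc
The guide heptamer GCTGAAT was found in 2 of the 10 genes. In ADAM17, which fell, it is followed by an A, and in EREG, which was not called, by a T. Among the 13072 tested genes whose 3′ UTR was annotated, 11.9% held this heptamer, as did 19.1% of genes that fell and 9.03% of genes that rose. HBEGF, the largest fall among the 10 genes, held neither heptamer, and MET, AREG, TGFA, ERBB2, ERBB3 and ADAM10 held neither in that UTR. The passenger heptamer GTCATCT was in EGFR, which fell, and in EREG, which was not called, followed by an A in both. It was in 12.1% of tested genes with a 3′ UTR, in 14.3% of those that fell and in 12.4% of those that rose. In EGFR it was in 3 of the 7 annotated 3′ UTRs. Outside the longest UTR it was also in 1 of the 3 annotated 3′ UTRs of ADAM17. Matches are descriptions of sequence, and their part in the changes was not tested.

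Among the receptors EGFR and MET fell, ERBB2 rose and ERBB3 was not called, with log2 fold changes from -0.28 to 0.27. EGFR, the receptor of the 4 ligands above, on chromosome 7 from 55019021 to 55211628, stood at 188.9, 178.1 and 150.2 CPM in siBYSL 1 to 3, against 194.5, 208.6 and 202.5 CPM in siNC 1 to 3. The groups did not overlap, yet siBYSL 1 lay close to siNC 1 and siBYSL 3 was well below the rest. The log2 fold change of EGFR was -0.23 (SE 0.077, edgeR adjusted p = 0.0383), or 85.4% of the siNC level. Without siBYSL 3 it was -0.14 (SE 0.042, adjusted p = 0.00983), a smaller fall with a smaller error. The call was lost with library totals (-0.15, adjusted p = 0.195), with upper-quartile factors (-0.18, 0.0736) and without siBYSL 2 (0.0731), siNC 1 (0.0665), siNC 2 (0.127) or siNC 3 (0.113).

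MET, on chromosome 7 from 116672390 to 116798386, stood at 189.1, 182.9 and 158.6 CPM in siBYSL 1 to 3, against 217.4, 213.1 and 213.3 CPM in siNC 1 to 3. Every siBYSL library was lower than every siNC library, and siBYSL 3 was lowest. MET had a log2 fold change of -0.28 (SE 0.065, edgeR adjusted p = 0.00672), and -0.21 without siBYSL 3. The call held under all 14 alternatives, with log2 fold changes from -0.33 to -0.20.

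ERBB2, which encodes the receptor HER2 that has no known ligand of its own and pairs with the other EGF receptors, lies on chromosome 17 from 39687914 to 39730426. It stood at 64.1, 60.4 and 61.3 CPM in siBYSL 1 to 3, against 50.1, 53.2 and 50.6 CPM in siNC 1 to 3. All siBYSL libraries were higher, siBYSL 3 among them. The log2 fold change of ERBB2 was 0.27 (SE 0.055, edgeR adjusted p = 0.00312), and the call held under all 14 alternatives. The ratio of EGFR to ERBB2 per kilobase was 2.29 ± 0.24 in siBYSL and 3.24 ± 0.05 in siNC, and 1.40 in siBYSL and 1.98 in siNC with the longest transcript as the length.

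ERBB3, a receptor of neuregulins with little kinase activity, lies on chromosome 12 from 56076799 to 56103505 and was the least abundant of the 10 genes, with 188 to 246 counts per library in siBYSL and 172 to 244 in siNC. It stood at 6.52, 7.44 and 7.57 CPM in siBYSL 1 to 3, against 6.15, 8.71 and 8.15 CPM in siNC 1 to 3. All siBYSL libraries lay within the range of the siNC libraries. For ERBB3 the log2 fold change was -0.10 (SE 0.13, edgeR adjusted p = 0.603), and 1.96 SE on either side spanned -0.35 to 0.16, an interval that holds a fall of the size seen in EGFR but not a rise of the size seen in ERBB2.

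**Figure D3:**
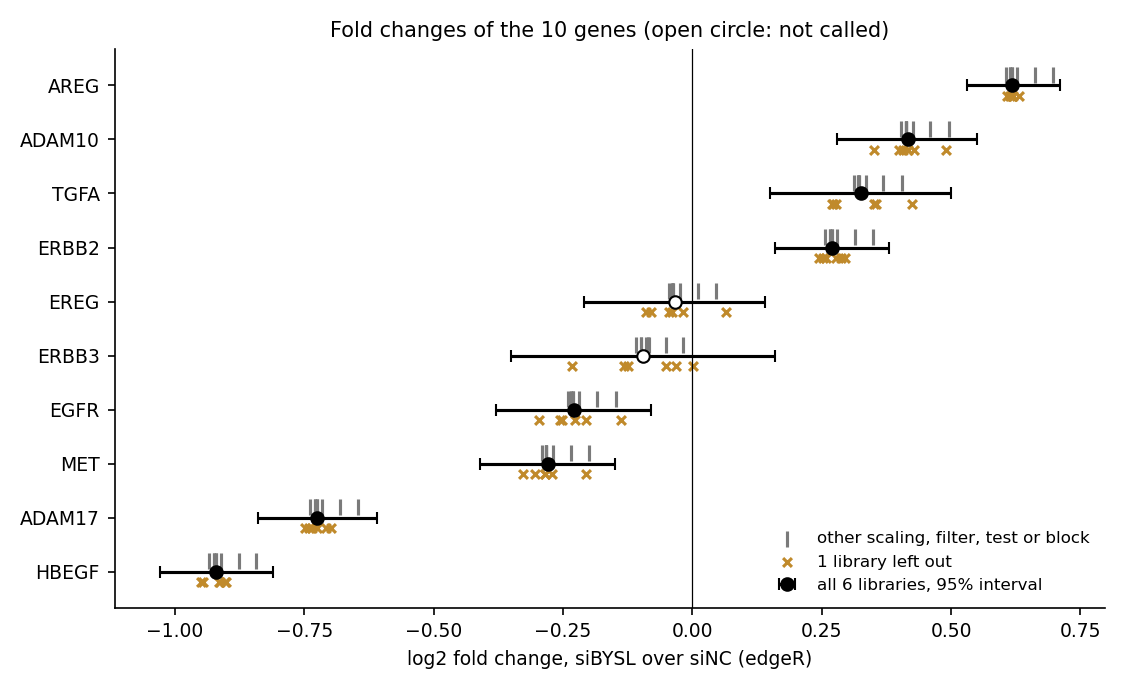
Log2 fold change of siBYSL over siNC for each of the 10 genes (circles, with bars of 1.96 SE on each side; open circles did not pass the test), with the values under other settings (grey ticks) and with 1 library left out (crosses). AREG at 0.62 and HBEGF at -0.92 lie at the ends, and EREG and ERBB3 straddle 0.

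The 10 genes also differed in how far siBYSL 3 departed from its group. On the log2 scale siBYSL 3 minus the mean of siBYSL 1 and 2 was -0.32 for EREG, -0.32 for TGFA, -0.29 for EGFR, -0.23 for MET and -0.23 for ADAM10. The median of tested genes of 10 CPM or more was -0.03, with a 10th percentile of -0.27. These 5 genes thus lay toward the low end in that library, whichever way they differed from siNC. The same difference was -0.08 for ADAM17, -0.02 for ERBB2, 0.00 for AREG, 0.08 for HBEGF and 0.12 for ERBB3. In siNC the like difference for siNC 3 ran from -0.06 to 0.15.

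Per kilobase of exon AREG was the most abundant of the 10 genes in both groups, at 155.6 ± 2.3 CPM per kilobase in siBYSL and 101.3 ± 0.48 in siNC (SD, n = 3 each). MET came next, at 25.1 ± 2.3 in siBYSL and 30.5 ± 0.34 in siNC. In siBYSL the order then ran HBEGF (15.3), EGFR (13.8), TGFA (13.3), ADAM10 (13.1), ERBB2 (6.00), EREG (3.43), ADAM17 (2.78) and ERBB3 (0.79). The library ranges of HBEGF and EGFR, of EGFR and TGFA, and of TGFA and ADAM10 overlapped there, so these neighbours could not be ordered. In siNC the order ran HBEGF (29.03), EGFR (16.1), TGFA (10.6), ADAM10 (9.79), ERBB2 (4.97), ADAM17 (4.59), EREG (3.51) and ERBB3 (0.85), and among neighbours only TGFA and ADAM10 overlapped. ADAM17 thus stood below EREG in siBYSL and above it in siNC on this length. With the longest annotated transcript as the length, AREG stayed highest and ERBB3 lowest in both groups, and 3 of the 10 genes kept their rank in both. On that length ADAM17 (4.54 in siBYSL, 7.51 in siNC) stood above EREG (4.24 in siBYSL, 4.35 in siNC) in both groups, so the exchange of places depended on the length used. HBEGF (19.4 in siBYSL, 36.7 in siNC) then stood below MET (26.7) in siBYSL and above it (32.3) in siNC.

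For likeness, the 9931 other tested genes of 10 CPM or more were ranked by Pearson r of log2 CPM over the 6 libraries. The genes closest to AREG were HMGB3 (r = 0.9996), PODXL2 (0.9993) and H2AC6 (0.9992). Those closest to ADAM17 were MRS2 (r = 0.9994), CTPS1 (0.999) and PTBP3 (0.9988), and those closest to EGFR were OTUD4 (r = 0.9987), SGPP1 (0.9982) and EIF4G2 (0.9977). MRS2 and PTBP3 held the guide heptamer, and CTPS1 and the genes named for AREG and EGFR did not. An r of 0.99 or more was reached by 155 genes for AREG, 238 for ADAM17 and 48 for EGFR. All these values share the same 6 libraries, which form 2 groups, and for EGFR siBYSL 3 also stood apart.

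Other ligands and receptors of the EGF family were few. Of 8 listed, 4 were tested, 1 rose and 1 fell, with a median log2 fold change of 0.06, against 0.01 over all tested genes. Over all tested genes, 18.5% rose and 18.4% fell. NRG1, a neuregulin that binds ERBB3 and ERBB4, stood at 48.7, 49.7 and 44.6 CPM in siBYSL 1 to 3, against 67.4, 68.0 and 68.2 CPM in siNC 1 to 3, and fell by 0.51 on the log2 scale (SE 0.058, edgeR adjusted p = 7.6e-05). BTC, which encodes betacellulin, a ligand cut by ADAM10, rose by 0.63 to 4.03 ± 0.75 CPM in siBYSL, against 2.59 ± 0.50 CPM in siNC (SD, n = 3 each; edgeR adjusted p = 0.0194), and lost the call without siBYSL 2, siNC 1 or siNC 2. EGF itself stood at 3.09 ± 0.53 CPM in siBYSL and 3.16 ± 0.74 CPM in siNC and was not called. ERBB4, EPGN and NRG4 were under the filter, at means of 0.28 CPM or less in each group, and NRG3 was not analysed here.

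Of 19 other sheddases and regulators of sheddases, 5 rose, 4 fell and 10 did not pass, with a median of 0.02. The shares over all tested genes were 18.5% for rises and 18.4% for falls. TIMP3, the tissue inhibitor that blocks ADAM17, was at 549.5, 527.6 and 513.9 CPM in siBYSL 1 to 3, against 362.6, 375.5 and 376.1 CPM in siNC 1 to 3, a rise of 0.51 (SE 0.051, edgeR adjusted p = 3.6e-05). Other tissue inhibitors in the list did not rise: TIMP2 fell by 0.17 (edgeR adjusted p = 0.0241) and TIMP1 was not called (-0.13). Without siBYSL 3, TIMP1 fell by 0.25 (edgeR adjusted p = 3.7e-05). ADAM15 (0.27) and ADAM19 (0.44) rose and ADAM8 fell by 0.18. The iRhom genes RHBDF1 and RHBDF2, needed for ADAM17 to mature, stood at 0.10 and -0.12 and were not called, nor was FRMD8, which stabilises that complex, at -0.10. Of the TspanC8 tetraspanins, which escort ADAM10, TSPAN10 (0.68) and TSPAN17 (0.17) rose, TSPAN5 and TSPAN14 fell by 0.14 and 0.15, and TSPAN15 and TSPAN33 were not called. TSPAN10 was scarce, at 1.93 ± 0.051 CPM in siBYSL and 1.21 ± 0.39 CPM in siNC (SD, n = 3 each). Its error was wide (SE 0.23, edgeR adjusted p = 0.0378), and TSPAN17 stood at 78.7 CPM in siBYSL and 70.1 CPM in siNC. The balance of this list depended on scaling and libraries: with library totals 7 rose and 0 fell, without siBYSL 3, 6 rose and 5 fell, and without siNC 3 the number called was 3, all rises.

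Of 7 tested genes around MET, 5 rose and 0 fell, with a median of 0.36. Rises made up 18.5% of all tested genes and falls 18.4%. The 5 rises were ST14 (0.77), which encodes matriptase, an activator of the MET ligand, SPINT1 (0.36), which encodes an inhibitor of that protease, the plexin gene PLXNB1 (0.50), MST1 (0.55), which encodes the ligand of the MET relative MST1R, and CD44 (0.19), a MET co-receptor that is also among the mesenchymal markers above. ST14 stood at 7.95 ± 0.58 CPM in siBYSL and 4.65 ± 0.088 CPM in siNC (SD, n = 3 each; edgeR adjusted p = 2.0e-04). MST1 was scarce, at 1.64 ± 0.25 CPM in siBYSL and 1.12 ± 0.053 CPM in siNC (edgeR adjusted p = 0.0462). Without siBYSL 3, 4 rose and 1 fell: MST1 lost its call (0.49, edgeR adjusted p = 0.0897) and SPINT2, another protease inhibitor, fell by 0.12. The count called was 3, all rises, when siBYSL 2 or any siNC library was left out. HGF, the ligand of MET, was not analysed here.

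Of 19 adaptors and effectors of receptor signalling, 6 fell and 2 rose, with a median of -0.03. Among all tested genes the shares were 18.4% for falls and 18.5% for rises. NRAS, a RAS GTPase, stood at 94.9, 97.1 and 85.4 CPM in siBYSL 1 to 3, against 154.3, 156.1 and 159.2 CPM in siNC 1 to 3 (log2 fold change -0.76, SE 0.058, edgeR adjusted p = 6.5e-06). The kinase gene MAP2K1 fell by 0.64 and the adaptor genes GRB2 and SHC1 by 0.25 and 0.24. STAT3 (0.43) and PLCG1 (0.29) rose. Of the 6 that fell, 4, NRAS and MAP2K1 among them, held the guide heptamer in the 3′ UTR, as did PLCG1, which rose, and 2 of the 11 not called. Without siBYSL 3, 8 fell and 7 rose.

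Inhibitors of the receptors and of ERK went both ways: of 17 tested, 4 fell, 3 rose and 10 did not pass, with a median of -0.09. Falls were 18.4% and rises 18.5% of all tested genes. ERRFI1, whose product binds and blocks the EGFR kinase, stood at 189.2, 169.9 and 147.9 CPM in siBYSL 1 to 3, against 458.0, 489.1 and 470.8 CPM in siNC 1 to 3. The groups were far apart, with a log2 fold change of -1.48 (SE 0.081, edgeR adjusted p = 9.2e-07), and ERRFI1 did not hold the guide heptamer. PTPRJ, a receptor phosphatase that acts on EGFR, rose by 0.91 to 185.5 ± 10.96 CPM in siBYSL, against 98.7 ± 5.4 CPM in siNC (SD, n = 3 each; edgeR adjusted p = 3.0e-06), and held the guide heptamer. The ERK phosphatase genes DUSP5 and DUSP4 moved apart, DUSP5 by -0.57 and DUSP4 by 0.35. The ubiquitin ligase gene CBLB rose by 0.36, while CBL, which marks active EGFR for degradation, stood at -0.14 and was not called. The other falls were SPRY4 (-0.30) and SOCS4 (-0.25). Of the 4 that fell, 1, SOCS4, held the guide heptamer, as did 2 of the 3 that rose and 1 of the 10 not called. Without siBYSL 3, 5 fell and 6 rose.

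Of 13 genes of receptor endocytosis and sorting, 6 fell and 1 rose, with a median of -0.14. By comparison, 18.4% of all tested genes fell and 18.5% rose. EPS15, a clathrin-coat adaptor first known as an EGFR substrate, stood at 34.9 ± 2.6 CPM in siBYSL and 61.2 ± 3.5 CPM in siNC (SD, n = 3 each; log2 fold change -0.81, edgeR adjusted p = 1.5e-05), and held the guide heptamer. AP2A1 of the clathrin adaptor fell by 0.34, the sorting genes TSG101, HGS and STAM by 0.30, 0.26 and 0.22, and RAB11A, of the recycling route, by 0.15. EPN1, which also held the guide heptamer, rose by 0.33. Clathrin heavy chain, CLTC, stood at 0.01 and was not called. Without siBYSL 3, 8 fell and 2 rose.

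Of 14 genes listed as responding to ERK, 8 fell and 0 rose, with a median of -0.27, the lowest of the 7 lists. These counts depend on how genes were split over the lists. The DUSP and SPRY genes were counted among the inhibitors above. There DUSP4 rose, DUSP5 and SPRY4 fell, and DUSP6, SPRY1 and SPRY2 were not called. Falls made up 18.4% of all tested genes and rises 18.5%. In either direction, 44% of tested genes with a mean of 10 CPM or more were called. PLAUR, the urokinase receptor gene, stood at 77.3 ± 2.9 CPM in siBYSL and 139.2 ± 1.9 CPM in siNC (SD, n = 3 each; log2 fold change -0.85, SE 0.050, edgeR adjusted p = 1.4e-06). The cytokine gene LIF fell by 0.82, the AP-1 gene FOSL1 by 0.80, VGF by 0.49, cyclin D1 (CCND1) by 0.33, ETV5 by 0.32, PHLDA1 by 0.30 and JUN by 0.18. VGF was scarce, at 2.02 ± 0.25 CPM in siBYSL and 2.85 ± 0.20 CPM in siNC. EGR1, FOS, IER2, IER3, MYC and ETV4 were not called. Of the 8 that fell, ETV5 alone held the guide heptamer. Without siBYSL 3, 9 fell and 1 rose, with EGR1 (-0.32) added to the falls and MYC (0.11) the rise. Under the alternatives 6 to 10 genes of this list were called, and with library totals 6 fell and 0 rose.

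**Figure D4:**
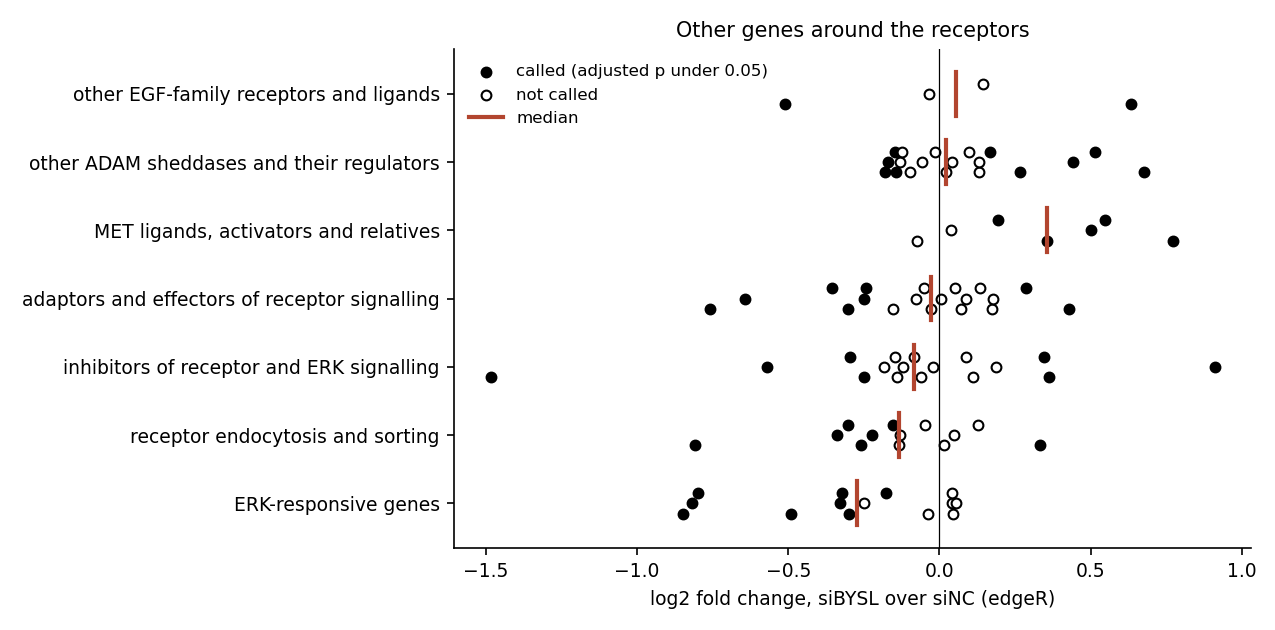
Log2 fold change of siBYSL over siNC for the tested genes of the 7 lists around the receptors, 1 point per gene (filled where the adjusted p was under 0.05), with each list's median as a red bar. All 5 called genes around MET lie right of 0 and all 8 called genes of the ERK-responsive list lie left of it.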

How the data were processed

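Poly(A) RNA-seq of 3 siBYSL and 3 siNC cultures was read as 150-nt pairs, per the labels. The authors deposited whole-number raw counts for each gene and library. HISAT2, DESeq2 and build GRCh38.p13 are named without role, per the submitters' processing notes; the counter, annotation release and strand setting were not given in the sources used here. Counts were filtered with filterByExpr, scaled with TMM factors (1.011 to 1.04 in siBYSL, 0.9645 to 0.9806 in siNC) and tested with the edgeR 4.0.16 quasi-likelihood test (robust, group only, R 4.3.3) over 16412 genes, with Benjamini-Hochberg adjustment and a threshold of 0.05. SE is the absolute log2 fold change over the square root of F. The common biological coefficient of variation was 0.0649, and low counts carry wider errors.

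Exon lengths, positions and 3′ UTRs came from GENCODE 29, matched by identifier without version, and promoters from RefSeq. Alternatives were other scalings, filters and tests (DESeq2 1.42.0, limma 3.58.1), a replicate block and each library left out. The genes, the 7 lists, the tests and the alternatives were chosen with earlier results of these data known. All 10 genes and BYSL were named, of each list any called gene with those of smallest p first, and the 3 genes most like EGFR, AREG and ADAM17. List genes named though not called were chosen after their values were seen. On simulated counts for this comparison (16191 genes), 42% of 50 genes changed by a factor of 1.25 and 74% of 50 changed by 1.5 were called, with 8 false calls. The simulation changed only 200 genes and set no library apart, whereas 36.9% of tested genes were called in the data. Its rates therefore need not hold for these data. Some genes of the lists are counted but not reported here by name.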

Additional observations from a re-analysis of the deposited data

How the results depend on the processing

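AREG, HBEGF, ADAM17, ADAM10, ERBB2, MET and BYSL kept their direction and call under all 14 alternatives; EGFR lost its call in 6 and TGFA in 2, as given above. The number of the 10 genes that rose was 4 in all alternatives that kept every library and 3 to 4 with a library left out; the number that fell was 3 with library totals or upper-quartile factors and 3 to 4 with a library left out. EREG changed sign with library totals (0.046), upper-quartile factors (0.011) and without siBYSL 3, where leaving out a library gave -0.089 to 0.065; ERBB3 ranged over -0.23 to 0.0018 with a library left out, the sign changing without siNC 2; the cause was not tested. With library totals 67.4% of all called genes rose, and with upper-quartile factors 60%, against 50% with TMM factors. The number called among other sheddases and regulators was 9, 5 with the DESeq2 Wald test, 5 with the replicate block and 3 to 11 with a library left out. With a library left out, calls numbered 1 to 2 for other EGF-family genes, 3 to 5 around MET, 7 to 15 for adaptors and effectors, 5 to 11 for inhibitors, 5 to 10 for endocytosis and 6 to 10 for ERK-responsive genes.

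No pairing of the samples by replicate number was seen. Same-numbered libraries correlated at -0.129, 0.0596 and 0.0106 in their deviations from the group means, over genes. Not every library correlated best with its own number. The deviations of a gene within a group are tied to each other, so these values cannot show that the samples were unpaired. With the replicate block 4 of the 10 genes rose and 4 fell, and 2802 genes rose and 2764 fell in all. With the longest transcript as length 3 of the 10 genes kept their rank, and on raw counts the AREG share was 66.1% in siBYSL and 51.1% in siNC, since length no longer divides the values. The guide heptamer was found in 2 of the 10 genes, whether the longest or any annotated 3′ UTR was searched. In ADAM17 it was in 2 of the 3 annotated 3′ UTRs. ERBB3, at 172 to 246 counts per library, had the widest error of the 10 genes.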
